A study of Arabidopsis thaliana with 24 samples.

Results

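The subject is a set of 9 SAUR genes of Arabidopsis thaliana, of 32833 genes in the deposited count table: SAUR33, SAUR36, SAUR37, SAUR41, SAUR52, SAUR71, SAUR72, SAUR74 and SAUR76. They were picked by gene identifier because their transcript levels had been seen to move in different directions with abscisic acid (ABA) in these same libraries. Their differences between ABA and mock are therefore given as a description, without a test. The tests of the 9 genes concern genotype and light. They use the same libraries, and both mock and ABA-treated samples hold values that entered the choice. The tests are thus not independent of the choice.

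RNA was measured in whole Columbia-0 seedlings of the wild type (WT) and of pifq, a mutant in the phytochrome-interacting factor genes PIF1, PIF3, PIF4 and PIF5. The sources used here give neither the mutant alleles nor the ABA dose. Seeds of all groups were stratified for 2 days. Dark-grown seedlings had 2 h of light to start germination. They were moved after 62 h to plates with ethanol as mock or with ABA, and stayed in darkness for 4 days. Light-grown seedlings stood in white light of 10 µmol per m2 per s with 16 h light and 8 h dark, were moved after 72 h, and stayed on mock or ABA plates for 5 days. All groups grew at 22 °C on medium with sucrose, and the 8 groups (WT or pifq, dark or light, mock or ABA) held 3 biological replicate libraries each, 24 in all. Light-grown seedlings were thus also older, and the effects of light and of age cannot be told apart.

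SAUR proteins are small plant proteins whose genes were first found through their rapid induction by auxin. The better studied ones bind and inhibit PP2C.D phosphatases, which keeps the plasma membrane proton pumps (the AHA proteins) phosphorylated and active, so that the wall is acidified and the cell can expand. PIF transcription factors promote hypocotyl elongation in darkness and are degraded in light, and ABA inhibits seedling growth. The family is large and its members differ in where and when they are expressed.

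The genes were labelled as dispersed, that is, outside the tandem arrays in which many SAUR genes stand. On the TAIR10.1 assembly with its RefSeq annotation, that label held for 7 of the 9. The gene next to SAUR52 was SAUR51, 4502 bases away, and the gene next to SAUR76 was SAUR70, 916 bases away. SAUR33 (AT3G61900, chr3:22925742-22926379, plus strand) had 3 exons, and each of the others had 1. These were SAUR36 (AT2G45210, chr2:18641563-18642739, plus), SAUR37 (AT4G31320, chr4:15193709-15194665, minus), SAUR41 (AT1G16510, chr1:5644572-5645443, minus) and SAUR52 (AT1G75590, chr1:28382813-28383769, minus). The remaining 4 were SAUR71 (AT1G56150, chr1:21017311-21018122, plus), SAUR72 (AT3G12830, chr3:4078651-4079627, minus), SAUR74 (AT3G12955, chr3:4135406-4136143, minus) and SAUR76 (AT5G20820, chr5:7046747-7047446, minus). No other annotated gene overlapped any of the 9. Of the 31-base words of their exons, 0.971% of those of SAUR52 and 1.69% of those of SAUR74 occurred elsewhere in the genome, and none of those of the other 7, so few reads could be shared with a near copy.

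The 300 bases before the annotated gene start are shown for the 2 genes that were higher with ABA in every background (SAUR33 and SAUR74), the 2 with the largest decrease in dark-grown WT (SAUR37 and SAUR76), and SAUR36. They are printed 5′ to 3′ on the gene's own strand, and capitals mark ACGTG, the core of the ABA response element, or its reverse complement CACGT.
SAUR33, chr3:22925442-22925741, plus strand: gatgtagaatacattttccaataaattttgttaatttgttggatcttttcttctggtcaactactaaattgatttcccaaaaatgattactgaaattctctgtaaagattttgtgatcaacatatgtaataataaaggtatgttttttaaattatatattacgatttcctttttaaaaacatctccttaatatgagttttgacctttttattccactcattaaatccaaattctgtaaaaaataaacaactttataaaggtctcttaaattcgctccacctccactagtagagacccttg
SAUR74, chr3:4136144-4136443, minus strand: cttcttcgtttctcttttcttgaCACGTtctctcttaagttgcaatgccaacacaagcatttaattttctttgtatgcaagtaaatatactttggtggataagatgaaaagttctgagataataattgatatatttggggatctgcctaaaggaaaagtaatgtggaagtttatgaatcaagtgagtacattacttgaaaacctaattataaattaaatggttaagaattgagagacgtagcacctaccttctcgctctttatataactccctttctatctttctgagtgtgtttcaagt
SAUR37, chr4:15194666-15194965, minus strand: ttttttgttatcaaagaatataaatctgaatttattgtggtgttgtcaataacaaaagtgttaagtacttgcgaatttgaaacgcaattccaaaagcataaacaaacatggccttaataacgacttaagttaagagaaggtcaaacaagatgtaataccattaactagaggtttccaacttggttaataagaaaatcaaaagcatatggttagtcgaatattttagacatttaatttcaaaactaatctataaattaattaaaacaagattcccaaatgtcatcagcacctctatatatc
SAUR76, chr5:7047447-7047746, minus strand: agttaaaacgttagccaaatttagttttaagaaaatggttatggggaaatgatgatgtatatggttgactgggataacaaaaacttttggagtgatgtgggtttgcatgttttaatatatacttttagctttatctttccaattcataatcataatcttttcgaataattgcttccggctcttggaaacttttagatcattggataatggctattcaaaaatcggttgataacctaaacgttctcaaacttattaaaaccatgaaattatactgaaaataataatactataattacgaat
SAUR36, chr2:18641263-18641562, plus strand: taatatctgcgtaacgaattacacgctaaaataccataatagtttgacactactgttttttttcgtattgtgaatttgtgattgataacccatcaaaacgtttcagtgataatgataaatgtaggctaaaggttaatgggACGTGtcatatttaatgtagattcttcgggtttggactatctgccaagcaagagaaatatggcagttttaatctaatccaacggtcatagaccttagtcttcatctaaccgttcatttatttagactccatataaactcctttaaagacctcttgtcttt
ACGTG was searched on both strands and was present in 2 of the 9 windows. In SAUR36 it started 160 bases before the gene, and in SAUR74 it lay on the opposite strand, 277 bases before the gene. Of 27443 windows of the same length before annotated genes, 25.6% held it. SAUR33 and SAUR74, which shared a direction with ABA, thus did not share this word. CACGTG, the G-box that PIF proteins bind and which itself holds ACGTG, was in none of the 9 windows and in 7.09% of all. CACATG, a second PIF-bound word, was in none of the 9 and in 13.1% of all. The auxin response words TGTCTC (13% of all windows) and TGTCGG (4.91%) were also in none of the 9. These are matches of letters in a short window and say nothing of binding.

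Library totals ran from 13722850 to 17538529 counts, so that 1 count stood for 0.057 to 0.0729 CPM (counts per megacount of the library) before scaling by TMM. The CPM values given for genes are scaled by TMM. All 9 genes passed the filter on low counts that left 20828 genes for testing. As a check of the genotype, PIF3 stood at 55.9 to 71.1 CPM in dark mock WT and at 1.67 to 3.10 CPM in dark mock pifq, and PIF5 at 33.9 to 39.9 and 12.7 to 20.9 CPM. PIF3 and PIF5 were lower in pifq than in WT, with no overlap of libraries, in all 4 conditions. PIF1 and PIF4 gave no such check: the PIF1 level was 84.2 to 98.5 CPM in dark mock pifq and 36.8 to 38.2 CPM in dark mock WT. Of the 3 dark mock pifq libraries, replicate 3 was the highest for every one of the 9 genes, and calls that change without it are named. Changes of sign among values that were not called are given at the end, as ranges over all libraries left out. The seedlings were sampled whole, so fewer cells of a type and less RNA per cell cannot be told apart.

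**Figure D1:**
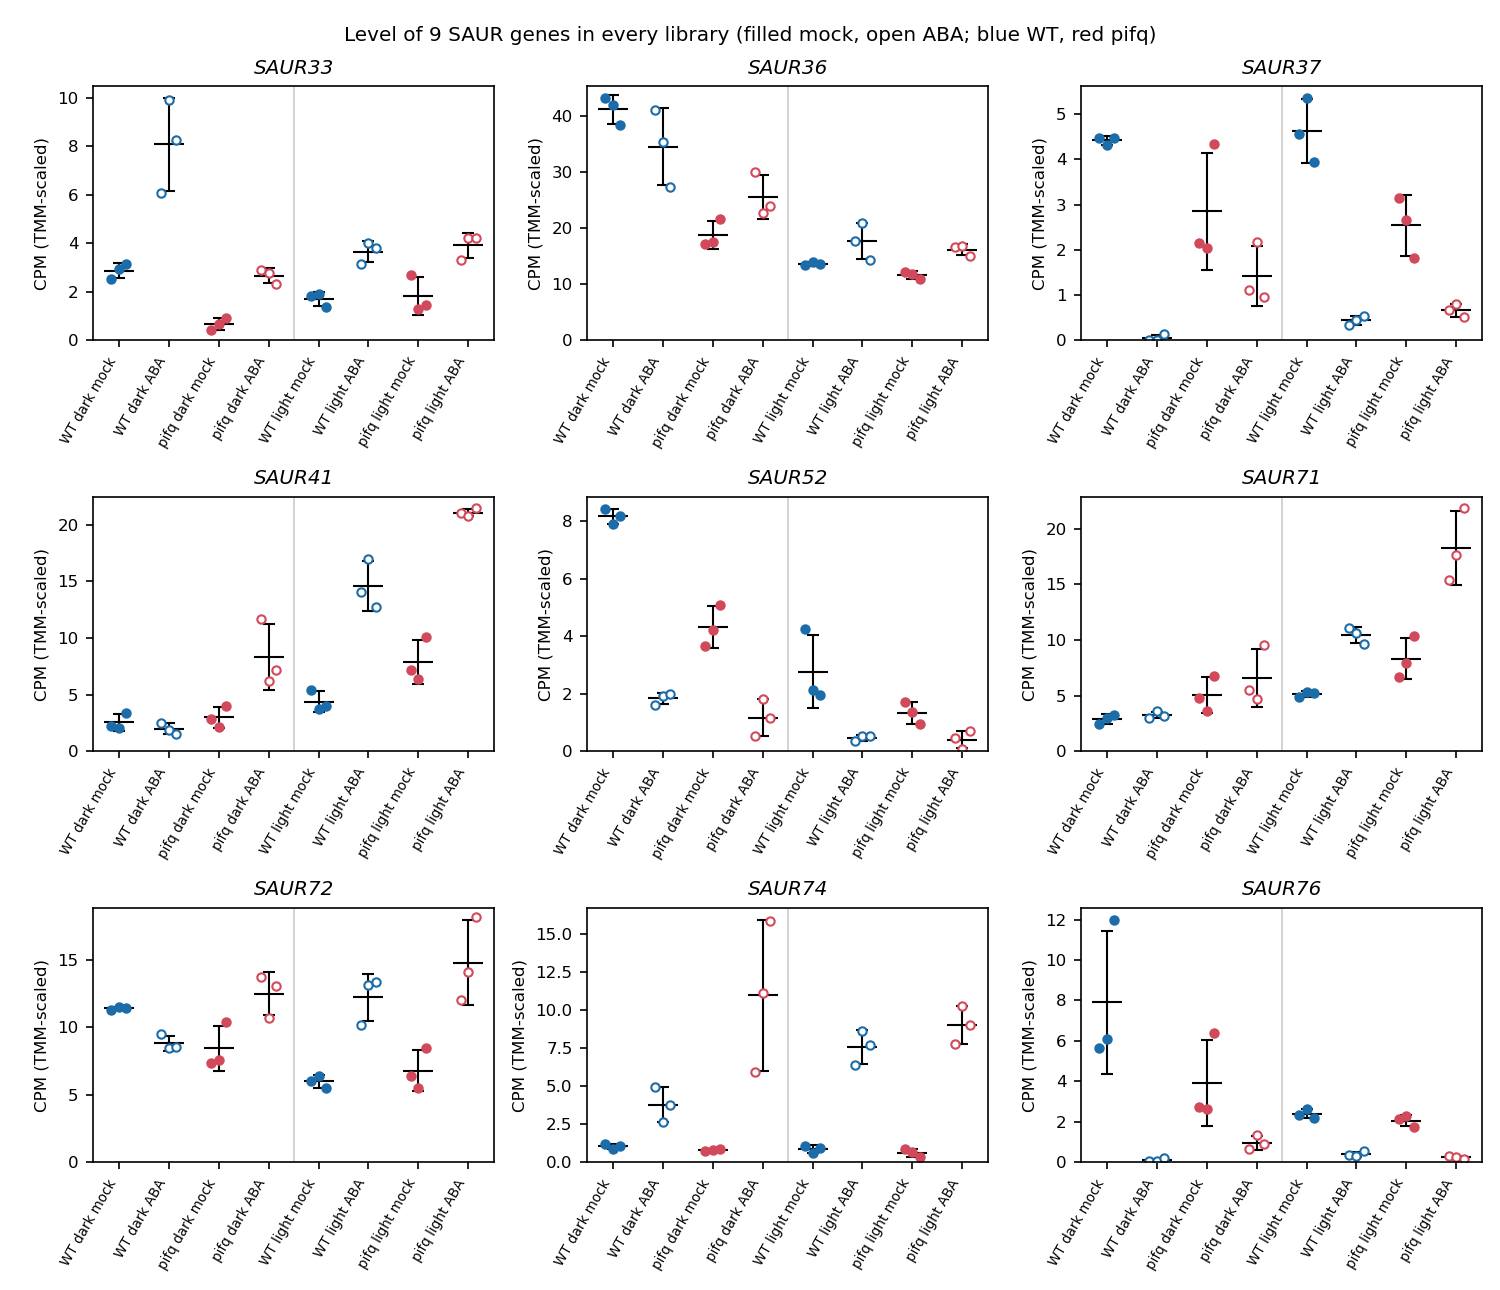
Level of each of the 9 genes in every library, in CPM scaled by TMM factors, for the 8 groups on the horizontal axis; points are libraries (filled mock, open ABA, blue WT, red pifq), horizontal bars are means and error bars are SDs of 3 libraries. SAUR37 and SAUR76 lie at or near 0 in dark-grown WT with ABA, where SAUR33 has its highest values.

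The set spans a wide range of levels. Per kilobase of annotated transcript, in dark mock WT, SAUR36 had the highest level, at 35.0 CPM per kb (32.6 to 36.7 over libraries). SAUR72 followed at 11.7, SAUR76 at 11.3, SAUR52 at 8.53, SAUR33 at 5.95, SAUR37 at 4.62 and SAUR71 at 3.56 CPM per kb. SAUR74 was lowest, at 1.41 CPM per kb. In light-grown pifq with ABA the order differed: SAUR41 (24.2 CPM per kb) and SAUR71 (22.5) were highest and SAUR76 (0.338) was lowest.

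With ABA, 2 genes were higher than with mock in all 4 backgrounds, with no overlap of libraries. They were SAUR33 and SAUR74. Of all genes tested, 29.2% were higher without overlap in dark-grown WT, 29.2% in dark-grown pifq, 27.6% in light-grown WT and 26.7% in light-grown pifq. The corresponding shares of lower genes were 22.4%, 26%, 24.4% and 26.8%. These shares are for each background alone, and the share of all genes without overlap in all 4 at once is not given. Nothing is read from the set's own counts, because the ABA response chose it.

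SAUR33, for which no role is stated here, had its highest level of all groups in dark-grown WT with ABA. There it stood at 6.09, 9.92 and 8.26 CPM, against 2.54, 2.93 and 3.13 CPM with mock, a log2 difference of 1.49 ± 0.23 (SE, n = 3). In dark-grown pifq it stood at 2.88, 2.78 and 2.32 CPM with ABA and 0.430, 0.647 and 0.931 CPM with mock (log2 difference 2.00 ± 0.30). The pifq libraries with ABA thus overlapped the WT libraries with mock. In light, the log2 differences were 1.10 ± 0.26 in WT (3.16, 4.01 and 3.80 against 1.81, 1.92 and 1.36 CPM) and 1.09 ± 0.26 in pifq (3.30, 4.22 and 4.2 against 2.70, 1.29 and 1.46 CPM). Between the highest group mean and the lowest, in dark mock pifq, the ratio was 12.1.

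SAUR74, also without a stated role, gave 5 to 24 counts per library with mock and 44 to 232 with ABA. In dark-grown WT it stood at 1.19, 0.873 and 1.06 CPM with mock and 4.93, 2.63 and 3.78 CPM with ABA (log2 difference 1.85 ± 0.33). Dark-grown pifq had 0.753, 0.809 and 0.868 CPM with mock and 5.89, 11.1 and 15.8 CPM with ABA (3.74 ± 0.33). The 3 pifq libraries with ABA were spread over a wider range than those of any other group, and each was above all WT libraries with ABA in darkness. In light-grown WT it stood at 1.07, 0.595 and 0.906 CPM with mock and 6.39, 8.6 and 7.68 CPM with ABA (3.13 ± 0.34). In light-grown pifq the values were 0.880, 0.647 and 0.364 CPM and 7.72, 10.3 and 9.01 CPM (3.80 ± 0.36). Libraries of dark-grown pifq, light-grown pifq and light-grown WT with ABA overlapped, and those of dark-grown WT with ABA lay below them.

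In dark-grown WT, SAUR37 and SAUR76 had the largest decreases of the 9 genes with ABA, and both had their lowest level there. SAUR37, without a stated role, gave 90, 84 and 80 counts in dark mock WT (4.48, 4.31 and 4.48 CPM) and 0, 0 and 2 counts with ABA. It was 111-fold lower with ABA there, with a 95% exact interval of 30.5 to 926 that covers counting error only. Dark-grown pifq kept 17, 36 and 14 counts with ABA (1.11, 2.17 and 0.954 CPM), against 2.15, 2.05 and 4.34 CPM with mock, and the libraries overlapped (log2 difference -0.98 ± 0.33). In light its log2 difference was -3.38 ± 0.40 in WT (0.343, 0.437 and 0.533 CPM with ABA, 4.57, 5.35 and 3.95 CPM with mock). In light-grown pifq it was -1.93 ± 0.40 (0.675, 0.796 and 0.515 against 3.14, 2.65 and 1.82 CPM).

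SAUR76, which with its relatives SAUR77 and SAUR78 has been reported to bind ethylene receptors, gave 1, 1 and 3 counts in dark-grown WT with ABA (0.0553, 0.0597 and 0.192 CPM). With mock it stood at 5.62, 6.11 and 12.0 CPM there, a log2 difference of -6.20 ± 0.51 that rests on 5 counts in all on the ABA side. In dark-grown pifq the values were 0.655, 1.33 and 0.886 CPM with ABA and 2.74, 2.64 and 6.39 CPM with mock (-2.01 ± 0.37). Replicate 3 was the highest of both dark mock groups. In light-grown WT it stood at 0.343, 0.291 and 0.533 CPM with ABA and 2.35, 2.64 and 2.20 CPM with mock (-2.61 ± 0.47). In light-grown pifq the values were 0.300, 0.239 and 0.172 CPM and 2.14, 2.26 and 1.75 CPM (-3.06 ± 0.54).

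Genes known from roots moved in the same samples. A list of 17 genes of root hairs, endodermis and root cap summed to 512 to 547 CPM in dark mock WT and 223 to 468 CPM with ABA. In dark-grown pifq the sum was 231 to 274 CPM with mock and 90.9 to 197 CPM with ABA. In light it was 195 to 218 and 59.3 to 149 CPM in WT, and 93.4 to 127 and 50.2 to 59.8 CPM in pifq. No gene of the list was without counts in any group. Of its 16 members that could be tested, 12 were lower with ABA in dark-grown WT and 1 was higher by edgeR's test, where 17.5% of all genes were lower and 22.8% higher. In dark-grown pifq 6 were lower and 4 higher, and 7 were lower in each genotype in light. The shares of all genes called are not given for those backgrounds. By libraries without overlap, 6 of the 16 were lower and 1 higher in dark-grown pifq (26% and 29.2% of all genes). In light, 9 were lower and 0 higher in WT (24.4% and 27.6%), and 8 and 0 in pifq (26.8% and 26.7%). The part of the root genes in the values of SAUR37 and SAUR76 was not tested.

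SAUR52, without a stated role, was lower with ABA in all 4 backgrounds, as SAUR76 was, without overlap of libraries. The share of all genes lower in this way in all 4 at once is not given. In dark-grown WT it stood at 8.41, 7.90 and 8.17 CPM with mock and 1.61, 1.91 and 1.99 CPM with ABA (log2 difference -2.15 ± 0.32). Dark-grown pifq had 3.66, 4.2 and 5.09 CPM with mock and 0.524, 1.81 and 1.16 CPM with ABA (-1.87 ± 0.35). In light the levels were lower than in the matching dark groups, and with ABA they came down to 5, 7 and 7 counts in WT and 6, 1 and 8 counts in pifq (-2.56 ± 0.44 and -1.73 ± 0.50).

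SAUR41, SAUR71 and SAUR72 belong to the SAUR41 subfamily, whose members modulate cell expansion. SAUR41 has been located in the endodermis, and SAUR71 in the stele and the stomatal lineage. SAUR41 stood at 2.19, 2.05 and 3.36 CPM in dark mock WT and at 2.49, 1.85 and 1.54 CPM with ABA, which overlapped (log2 difference -0.35 ± 0.30). In dark-grown pifq it was higher with ABA, at 11.7, 6.16 and 7.16 CPM against 2.85, 2.10 and 3.97 CPM (1.49 ± 0.26). In light it was higher with ABA in both genotypes, at 14, 17 and 12.7 against 5.44, 3.70 and 4.01 CPM in WT (1.73 ± 0.25) and 21, 20.8 and 21.4 against 7.17, 6.34 and 10.0 CPM in pifq (1.43 ± 0.24). Dark-grown WT was thus the background in which SAUR41 libraries with and without ABA overlapped.

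SAUR71 differed little with ABA in darkness, where libraries overlapped in both genotypes. It stood at 2.44, 2.98 and 3.25 CPM with mock and 2.99, 3.58 and 3.20 CPM with ABA in WT (log2 difference 0.18 ± 0.26). In pifq it stood at 4.79, 3.61 and 6.76 CPM and at 5.50, 4.71 and 9.54 CPM (0.38 ± 0.24). In light it was higher with ABA without overlap, at 11.1, 10.6 and 9.66 against 4.83, 5.35 and 5.24 CPM in WT (1.02 ± 0.23). In light-grown pifq it stood at 15.4, 17.6 and 21.9 CPM with ABA and 6.66, 7.95 and 10.3 CPM with mock (1.14 ± 0.22).

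SAUR72 was the member whose direction with ABA differed between backgrounds without overlap in either, and its group means had the narrowest range of the 9, with a ratio of highest to lowest of 2.47. In dark-grown WT it was lower with ABA, at 9.46, 8.42 and 8.52 CPM against 11.2, 11.5 and 11.4 CPM (log2 difference -0.37 ± 0.17). In dark-grown pifq it was higher, at 13.7, 10.7 and 13.0 CPM against 7.37, 7.55 and 10.4 CPM (0.57 ± 0.17). It was also higher in light, by 1.03 ± 0.18 in WT (10.2, 13.1 and 13.3 against 6.04, 6.41 and 5.50 CPM) and by 1.12 ± 0.17 in pifq (12.0, 14.1 and 18.2 against 6.41, 5.50 and 8.44 CPM).

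SAUR36, also known as SAG201 and associated with leaf senescence, was the most highly expressed of the 9 genes in darkness, and its highest group mean was 3.54 times its lowest. It stood at 43.2, 42.0 and 38.3 CPM in dark mock WT and 41.0, 35.4 and 27.3 CPM with ABA, and these overlapped (log2 difference -0.25 ± 0.13). In dark-grown pifq it was higher with ABA, at 30.0, 22.7 and 23.9 CPM against 17.2, 17.5 and 21.6 CPM (0.45 ± 0.14). In light the log2 differences were 0.38 ± 0.15 in WT and 0.47 ± 0.15 in pifq, from levels of 10.9 to 14 CPM with mock to 14.4 to 20.8 CPM with ABA. A list of 9 senescence genes summed to 537 to 675 CPM in dark mock WT and 808 to 825 CPM with ABA, and to 441 to 524 and 843 to 1069 CPM in light-grown WT. SAG12, a defining gene of late senescence, had no count in 6 of the 8 groups, and the part of this list in the values of SAUR36 and SAUR74 was not tested.

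**Figure D2:**
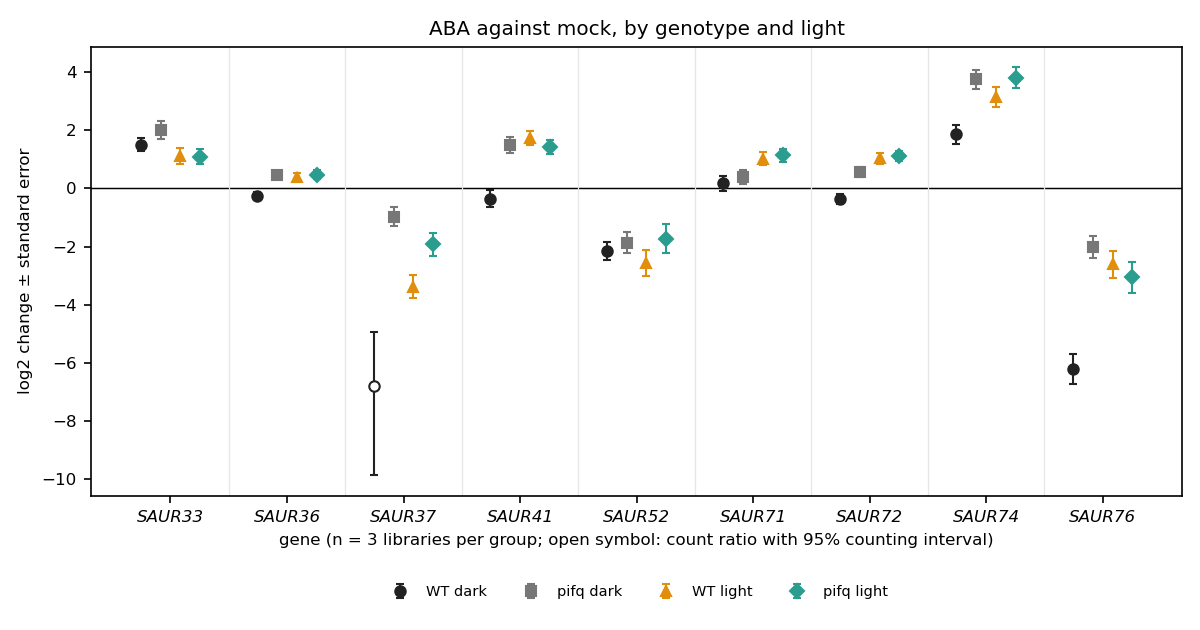
Log2 difference between ABA and mock for each of the 9 genes (vertical axis, ± SE from the edgeR fit, n = 3 libraries per group) in dark-grown and light-grown WT and pifq. SAUR33 and SAUR74 lie above 0 and SAUR52 and SAUR76 below 0 in all 4 backgrounds; the open symbol is the count ratio of SAUR37, 111-fold lower, with its 95% counting interval.

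In darkness without ABA, the members were mostly lower in pifq than in WT. Of the 9 genes, 5 were lower (SAUR33, SAUR36, SAUR52, SAUR72 and SAUR76) and 1 was higher (SAUR71), where 44.4% of all genes tested were called (23.5% higher and 20.9% lower; edgeR's quasi-likelihood test, Benjamini-Hochberg adjusted p under 0.05). SAUR33 had the largest difference, from 2.54, 2.93 and 3.13 CPM in WT to 0.430, 0.647 and 0.931 CPM in pifq, a log2 change of -2.10 ± 0.30 (adjusted p = 8.03e-06). SAUR36 had WT libraries at 38.3 to 43.2 CPM and pifq libraries at 17.2 to 21.6 CPM (-1.14 ± 0.14, adjusted p = 1.32e-06). Neither gene's WT and pifq libraries overlapped.

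The other calls in dark mock seedlings were less firm. SAUR52 fell by 0.92 ± 0.29 (adjusted p = 0.0136), and without pifq replicate 1 its adjusted p was 0.0639. SAUR76 fell by 1.02 ± 0.30 (adjusted p = 0.00959), but its libraries overlapped. Without WT replicate 3, which at 12.0 CPM stood above the other WT libraries, the change of SAUR76 was -0.59 (adjusted p = 0.124), and its call was also lost without pifq replicate 1 (0.0623) or 2 (0.0649) and in a fit of the 6 compared libraries alone (0.0866). SAUR72 fell by 0.44 ± 0.17 (adjusted p = 0.0373) and was no longer called when any library but pifq replicate 3 was left out, with adjusted p of 0.0704 to 0.149. SAUR37, at -0.65 ± 0.29, missed the threshold (adjusted p = 0.0794), and without pifq replicate 3 it was called, at -1.07 (adjusted p = 0.00734). Without pifq replicate 1 the count was 3 genes rather than 6.

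SAUR71 was higher in dark mock pifq, at 4.79, 3.61 and 6.76 CPM against 2.44 to 3.25 CPM in WT (log2 change 0.80 ± 0.25, adjusted p = 0.0126). Without pifq replicate 3 the change was 0.54 (adjusted p = 0.0958), and without WT replicate 1 the adjusted p was 0.0593. A list of 9 genes of the stomatal lineage and guard cells, where SAUR71 has been located, summed to 31.1 to 39.3 CPM in dark mock WT and 112 to 126 CPM in dark mock pifq, and all 9 rose, among them SPCH, which starts the lineage (2.56 ± 0.20, adjusted p = 4.41e-09). With ABA the list and SAUR71 did not move together: in dark-grown pifq the list was lower with ABA, at 59.3 to 64.0 CPM, and in light it was lower in WT (57.7 to 73.2 against 112 to 121 CPM) and in pifq (65.3 to 83.2 against 112 to 135 CPM), where SAUR71 was higher. The part of those cells in the level of SAUR71 in dark mock pifq was not tested. The root list went the other way, with 11 of 16 genes lower.

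In darkness with ABA, most members were higher in pifq than in WT. Of the 9 genes, 6 were higher and 2 lower, where 39.7% of all genes tested were called (22.2% higher and 17.5% lower). The WT and the pifq libraries with ABA in this comparison are among those whose ABA response chose the genes. The tests of all 9 genes here are thus not independent of the choice. The low values of SAUR37 and SAUR76 in WT were known beforehand, and the difference from mock was not tested. SAUR37 gave 67 counts over the 3 pifq libraries and 2 over the WT libraries, a 36.3-fold higher level (95% exact interval 9.67 to 306 for counting error only, edgeR's adjusted p = 7.08e-06). SAUR76 was higher by 3.18 ± 0.66 (adjusted p = 0.000639), with pifq libraries at 0.655 to 1.33 CPM and WT libraries at 0.0553 to 0.192 CPM. The summed root list was lower in these pifq libraries than in the WT ones (90.9 to 197 against 223 to 468 CPM). By gene, 9 of its 16 tested members rose and 7 fell, and the median of the 16 was 1.66, beside 0.05 for all genes. The members with the lowest p, CASP5 (-3.37 ± 0.30, adjusted p = 6.34e-08), CASP2 and CASP4 of the endodermal Casparian strip, fell.

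SAUR41 and SAUR74 were also higher in dark-grown pifq with ABA. SAUR41 rose by 2.07 ± 0.28 (adjusted p = 5.60e-06), from 1.54 to 2.49 CPM in WT to 6.16 to 11.7 CPM in pifq. SAUR74 rose by 1.53 ± 0.27 (adjusted p = 0.000148), from 2.63 to 4.93 CPM to 5.89 to 15.8 CPM. For these genes, as for SAUR37, SAUR71, SAUR72 and SAUR76, every pifq library was above every WT library. The share of all genes without overlap in this comparison is not given here. SAUR71 rose by 1.01 ± 0.25 (adjusted p = 0.00258), and without pifq replicate 3, the highest at 9.54 CPM, by 0.65. SAUR72 rose by 0.50 ± 0.17 (adjusted p = 0.0210), a call that was lost without pifq replicate 1 (adjusted p = 0.0827) or 3 (0.0578) or WT replicate 2 (0.0713) or 3 (0.0587). The stomatal list summed in these samples to between 59.3 and 64.0 CPM for pifq and between 30.2 and 35.3 CPM for WT, with 8 of 9 genes higher.

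SAUR33 and SAUR36 were lower in pifq with ABA as they were with mock. SAUR33 fell by 1.60 ± 0.24 (adjusted p = 1.85e-05). SAUR36 fell by 0.44 ± 0.14 (adjusted p = 0.0141), with overlapping libraries. The call of SAUR36 was lost without pifq replicate 2 (adjusted p = 0.0768) or 3 (0.0527) or WT replicate 1 (0.102), and in a fit of the 6 compared libraries alone (0.0614). SAUR52 was not called (-0.63 ± 0.38, adjusted p = 0.194), and without pifq replicate 2 its adjusted p was 0.0497.

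**Figure D3:**
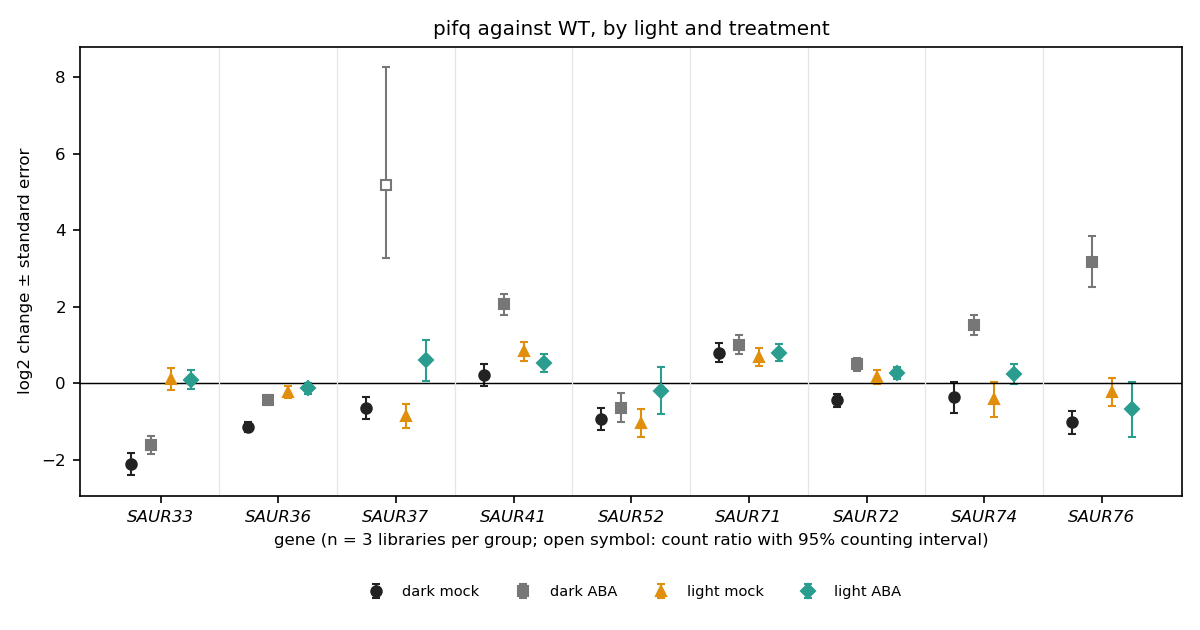
Log2 difference between pifq and WT for each of the 9 genes (vertical axis, ± SE from the edgeR fit, n = 3 libraries per group) in darkness and light, with mock and ABA. SAUR37, SAUR41, SAUR74 and SAUR76 lie well above 0 in darkness with ABA, and SAUR33 lies below 0 in darkness with either treatment; the open symbol is the count ratio of SAUR37, 36.3-fold higher, with its 95% counting interval.

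In light, few differences between the genotypes passed the test. With mock, SAUR41 was called, at 7.17, 6.34 and 10.0 CPM in pifq and 5.44, 3.70 and 4.01 CPM in WT (log2 change 0.84 ± 0.26, adjusted p = 0.0394), where 10.6% of all genes tested were called (5.64% higher and 4.96% lower). Its adjusted p was 0.2 without pifq replicate 3, and 0.138 without WT replicate 2 or without WT replicate 3. SAUR71 (0.69 ± 0.24, adjusted p = 0.0650), SAUR52 (-1.03 ± 0.36, adjusted p = 0.0711) and SAUR37 (-0.85 ± 0.30, adjusted p = 0.0763) missed the threshold, and came nearest to it among the genes not called. With ABA in light, 0 of the 9 genes were called by edgeR and 1.28% of all genes were (0.586% higher and 0.696% lower). Summed over the libraries of WT and of pifq there, SAUR37 gave 18 and 25 counts, SAUR52 19 and 15, and SAUR76 16 and 9. With so few counts, the lack of a call says little for these genes. By the same edgeR test SAUR41 (adjusted p = 0.308) and SAUR71 were the 2 genes with an unadjusted p under 0.05, and DESeq2 called 1 gene, SAUR71. SAUR71 stood at 15.4, 17.6 and 21.9 CPM in pifq and 11.1, 10.6 and 9.66 CPM in WT (0.80 ± 0.22, adjusted p = 0.0778). With the replicate number as a block in the fit of all 24 libraries, edgeR gave 0.78 and an adjusted p of 0.0305. That block has the same effect in all 8 groups, so this was not a paired test of the compared libraries alone.

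The difference between the genotypes was itself tested between darkness and light. With mock, 2 of the 9 genes passed, where 18.4% of all genes did (6.64% with a higher change in light and 11.8% with a lower one). SAUR33 was lower in pifq in darkness and had a log2 change of 0.11 ± 0.28 in light, and the difference between these changes was 2.21 ± 0.41 (adjusted p = 0.000606). SAUR36 had changes of -1.14 and -0.23, a difference of 0.91 ± 0.20 (adjusted p = 0.00295). Without dark mock pifq replicate 3, SAUR72 (0.79, adjusted p = 0.0282) and SAUR76 (1.32, adjusted p = 0.0293) were called as well.

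With ABA, the same test passed for 5 of the 9 genes, where 16.9% of all genes passed (7.08% higher and 9.8% lower in light). For SAUR33 the difference was 1.69 ± 0.34 (adjusted p = 0.00156), again from a lower level in pifq in darkness to 0.09 ± 0.25 in light. The excess in pifq that SAUR41, SAUR74 and SAUR76 had in darkness was smaller or not present in light, by -1.54 ± 0.36 (adjusted p = 0.00502), -1.28 ± 0.38 (adjusted p = 0.0243) and -3.85 ± 1.01 (adjusted p = 0.0108). SAUR37 also passed (adjusted p = 0.00328), with no size given because 1 of the 4 groups held 2 counts. The ABA values of all the genes in these tests, with the low levels in dark-grown WT, are among the values that chose the genes. Of the 16 tested root genes, 7 had a lower and 4 a higher difference by the same test. Those with the lowest p were the root hair genes PRP3 (-5.25 ± 0.71, adjusted p = 5.50e-05), EXPA18 and LRX1, all lower. The 7 lower genes had the direction of SAUR37 and SAUR76, and the 4 higher ones had the opposite direction. The part of the root genes in the values of SAUR37 and SAUR76 was not tested here either. The call of SAUR74 was lost without dark ABA pifq replicate 3 (-0.92, adjusted p = 0.0878), light ABA pifq replicate 1 (0.0593), dark ABA WT replicate 2 (0.0805) or light ABA WT replicate 2 (0.0576), and in a fit of the compared libraries alone (-1.22, adjusted p = 0.0944).

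Light-grown and dark-grown seedlings differed for most members, as for most genes. In WT with mock, 7 of the 9 genes were called, where 64.9% of all genes were (32.7% higher and 32.2% lower). SAUR36 fell in light by 1.60 ± 0.14 (adjusted p = 2.94e-09), from 38.3 to 43.2 CPM to 13.4 to 14 CPM. SAUR76 fell by 1.71 ± 0.32, SAUR52 by 1.56 ± 0.31, SAUR72 by 0.93 ± 0.17 and SAUR33 by 0.75 ± 0.26 (adjusted p of 8.34e-05, 0.000136, 7.95e-05 and 0.0161). SAUR71 rose by 0.83 ± 0.25 (adjusted p = 0.00641) and SAUR41 by 0.80 ± 0.28 (adjusted p = 0.0160). The call of SAUR33 was lost without dark mock WT replicate 3 (adjusted p = 0.0501) or light mock WT replicate 3 (0.0781). That of SAUR41 was lost without dark mock WT replicate 1 (0.0606) or 2 (0.0696) or light mock WT replicate 1 (0.0901).

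In pifq with mock, 6 genes were called, where 57.3% of all genes were (29% higher and 28.3% lower). SAUR33 rose in light by 1.46 ± 0.32 (adjusted p = 0.000510), the reverse of its direction in WT. SAUR41 (1.40 ± 0.26, adjusted p = 0.000112) and SAUR71 (0.72 ± 0.23, adjusted p = 0.0118) rose, and SAUR36 (-0.68 ± 0.15, adjusted p = 0.000435), SAUR52 (-1.67 ± 0.34, adjusted p = 0.000293) and SAUR76 (-0.92 ± 0.34, adjusted p = 0.0247) fell, as in WT. For SAUR76 the change was -0.39 (adjusted p = 0.314) without dark mock pifq replicate 3, and the call was also lost without light mock pifq replicate 3 (0.0821) and in a fit of the compared libraries alone (0.0523). For SAUR71 it was lost without dark mock pifq replicate 2 (0.0771) or light mock pifq replicate 3 (0.0795).

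With ABA, all 9 genes were called between light and dark in WT, where 62.6% of all genes were (31.5% higher and 31.1% lower), and 6 in pifq, where 56.1% were (25.9% higher and 30.2% lower). In a fit of the compared WT libraries alone, 7 of the 9 genes were called. SAUR37 and SAUR76 were too low in these libraries to pass its filter on low counts, so their calls rest on a filter over all groups. SAUR41 rose in WT by 2.88 ± 0.27 (adjusted p = 7.62e-09), and it rose by 1.34 ± 0.23 in pifq (adjusted p = 5.19e-05). SAUR71 rose by 1.68 ± 0.24 in WT and 1.48 ± 0.23 in pifq (adjusted p of 3.50e-06 and 1.01e-05). SAUR37 and SAUR76 went in opposite directions in the genotypes. SAUR37 was 11-fold higher in light in WT (18 against 2 counts, 95% exact interval 2.62 to 97.4, edgeR's adjusted p = 0.00255) and lower in light in pifq (-1.09 ± 0.43, adjusted p = 0.0334). SAUR76 was higher in light in WT (1.88 ± 0.80, adjusted p = 0.0466) and lower in pifq (-1.97 ± 0.60, adjusted p = 0.00798). In WT both are set against the dark ABA libraries whose low values were part of the choice of genes.

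The remaining calls with ABA were these. SAUR74 rose in light in WT by 0.99 ± 0.28 (adjusted p = 0.00385) and SAUR72 by 0.47 ± 0.17 (adjusted p = 0.0200). SAUR52 fell by 1.98 ± 0.46 in WT and by 1.54 ± 0.51 in pifq (adjusted p of 0.000731 and 0.0145). SAUR36 fell by 0.97 ± 0.14 and by 0.66 ± 0.14 (adjusted p of 3.83e-06 and 0.000549). SAUR33 fell in WT by 1.14 ± 0.23 (adjusted p = 0.000201), and in pifq it had 0.55 ± 0.25 (adjusted p = 0.0680). In WT the call of SAUR76 was lost when any library but dark ABA replicate 3 was left out (adjusted p of 0.0514 to 0.145), and that of SAUR72 without dark ABA replicate 2 or 3 or light ABA replicate 2 or 3 (0.0533 to 0.0763). In pifq the call of SAUR37 was lost without dark ABA replicate 2 (-0.63, adjusted p = 0.256) or light ABA replicate 1 (0.0725) or 3 (0.105) or in a fit of the compared libraries alone (0.0668), and that of SAUR52 without dark ABA replicate 2 (0.123) or light ABA replicate 2 (0.0829). SAUR74 in pifq had -0.28 ± 0.26 (adjusted p = 0.371), and was called as lower without dark ABA replicate 1 (-0.58, adjusted p = 0.0371).

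The rest of the family is given for reference. Of 71 other SAUR genes in the table, 55 could be tested. In dark mock pifq against WT, 5 were higher and 19 lower, with a median log2 change of -0.51, beside -0.65 for the 9 genes and 0.00 for all genes. In darkness with ABA, 8 were higher and 30 lower, with a median of -0.72, beside 1.01 for the 9 genes and 0.05 for all genes. These counts cannot be read against each other as a property of the 9 genes, which were picked from the family for their ABA responses in these libraries. In light, 16 were lower with mock. The 6 that were lower in light with ABA were SAUR19 to SAUR24, near-identical tandem copies whose counts are uncertain. SAUR9 and SAUR23 had the lowest adjusted p of the other SAUR genes in darkness with ABA, and both were lower in pifq (-3.68 ± 0.35 and -2.25 ± 0.22, adjusted p of 6.25e-08 and 9.78e-08). SAUR23 is 1 of those tandem copies, so its counts are uncertain.

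**Figure D4:**
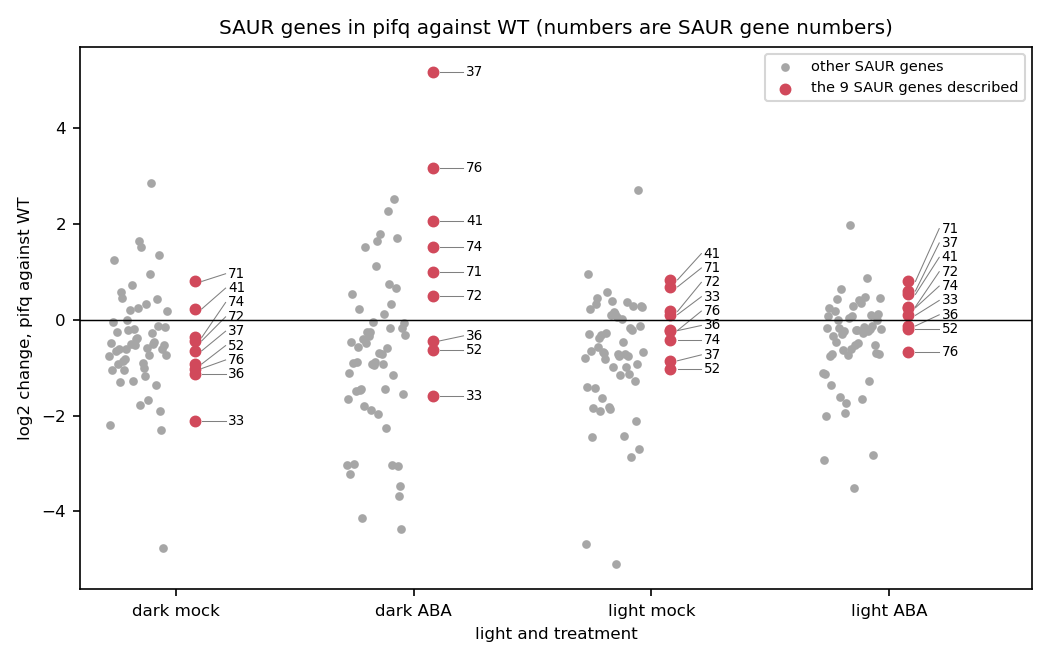
Log2 difference between pifq and WT (vertical axis, fitted by edgeR) for 55 other SAUR genes (grey) and the 9 genes described (red, labelled by SAUR number) in the 4 combinations of light and treatment. In darkness with ABA 6 of the red points are called higher and 30 of the grey ones are called lower, and the red genes were picked for their ABA responses in these libraries; the red point of SAUR37 there is its count ratio, 36.3-fold.

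In darkness, the PP2C.D and AHA genes called for pifq against WT were in both directions. Of all genes, 44.4% were called in dark mock and 39.7% in darkness with ABA. The number of AHA genes called was near or below these shares. That of PP2C.D genes was above them, at 7 of 9 with mock and 5 of 9 with ABA. In dark mock pifq against WT, 2 of 9 PP2C.D genes were higher and 5 lower. PP2C.D1 rose by 1.77 ± 0.39 (adjusted p = 0.00132) and PP2C.D7 fell by 1.44 ± 0.19 (adjusted p = 3.10e-06). In darkness with ABA, 3 were higher and 2 lower, and PP2C.D7 fell by 0.91 ± 0.18 (adjusted p = 0.000322). Of 9 tested AHA genes (11 in the table), 2 were higher and 1 lower in dark mock pifq, and 2 were higher and 2 lower with ABA. AHA2, one of the main pumps of the plant, fell by 0.45 ± 0.13 with mock (adjusted p = 0.00665) and by 0.68 ± 0.13 with ABA (adjusted p = 0.000240), and AHA7 rose by 1.91 ± 0.37 with ABA (adjusted p = 0.000332). In light, PP2C.D7 was the PP2C.D gene called, lower with mock (-2.34 ± 0.23, adjusted p = 2.21e-06) and with ABA (-1.23 ± 0.20, adjusted p = 0.00127). AHA2 had -0.30 ± 0.13 with mock in light (adjusted p = 0.138) and -0.33 ± 0.13 with ABA (adjusted p = 0.250).

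Across the 24 libraries, members differed in which other genes they resembled. These correlations of log2 CPM are descriptions over 8 groups that share conditions, and 7361 genes with a symbol and a mean of at least 5 CPM were candidates. SAUR76 was nearest to CLE5, a signalling peptide gene (Pearson's r = 0.962), and to the expansin gene EXPA17 (r = 0.953). SAUR37 was nearest to the myrosinase genes BGLU35 (r = 0.947) and BGLU34 (r = 0.939), also named TGG5 and TGG4. SAUR74 was nearest to ICME-LIKE2 (r = 0.964) and to SAG29 (r = 0.957), a sugar transporter gene that is also on the senescence list. SAUR36 was nearest to RHA1, a Rab GTPase gene (r = 0.950), and to the brassinosteroid receptor gene BRL1 (r = 0.949).

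The nearest genes of SAUR33 were GB2, another Rab GTPase gene (r = 0.911), and the wax synthesis gene CER1 (r = 0.905). Those of SAUR41 were D-CDES (r = 0.929) and the photosystem II gene PSBP-2 (r = 0.928). SAUR52 was nearest to the phospholipase gene PLC9 (r = 0.944) and HWI1 (r = 0.943), SAUR71 to BAG4 (r = 0.931) and MEE11 (r = 0.927), and SAUR72 to the aquaporin gene PIP2;5 (r = 0.893) and UBC18 (r = 0.839). Among the 9 genes themselves, SAUR37 and SAUR76 had r = 0.921 and SAUR41 and SAUR71 had r = 0.918.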

How the data were processed

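Strand-specific libraries of polyadenylated RNA were read as paired 100-base reads, per the labels' protocols. FastQC, STAR, SAMtools, DESeq2 and the TAIR10 build are named in the submitters' processing notes, without versions; neither the counting tool nor its strand setting is named there. The authors deposited raw counts per gene in 1 table, and these counts were used as deposited. It holds 32833 genes, 4822 of them without a count in these samples, with totals of 13722850 to 17538529 per library.

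Genes were filtered with filterByExpr by group, scaled by TMM and tested with edgeR 4.0.16 (R 4.3.3, robust quasi-likelihood fit over all 24 libraries, 1 coefficient per group, no replicate block), in 10 comparisons of genotype and light for the 9 genes, and in ABA against mock for other genes and lists alone, each with p-values adjusted by Benjamini-Hochberg over 20828 genes and called at an adjusted p under 0.05. The common biological coefficient of variation was 0.128. SE is the log2 change over the square root of F, and CPM are TMM-scaled. Where a group held 3 or fewer counts, a count ratio with a 95% exact binomial interval is given. Alternatives were DESeq2 1.42.0, RLE size factors, library totals alone, no filter, the compared libraries alone, a replicate block, and leaving out each replicate. The procedure was tested on simulated data.

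The 9 genes, the gene lists (root, stomatal lineage, senescence, PP2C.D, AHA) and the tests were chosen with earlier results of these data known. Named besides the 9 genes were the 2 genes with the highest correlation to each over 24 libraries (log2 CPM with a prior count of 2), PIF3 and PIF5, and up to 3 genes per list with the lowest p in a comparison; PIF1 and the counts of the senescence gene SAG12 are given outside this rule. The other SAUR genes are those with a SAUR number among their names; 1 of them, AT5G01830, codes for an ARM repeat protein, and SAUR19 to SAUR24 are near-identical tandem copies whose counts are uncertain. Positions and promoter windows come from the TAIR10.1 assembly with its RefSeq annotation, since the count table holds no coordinates.

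Labels number the replicates alike in all groups but do not say what a number shares. Deviations from the group mean of same-numbered libraries correlated at over 0.1 for all 3 numbers in pifq against WT in dark mock seedlings (0.134, 0.146 and 0.321) and light ABA seedlings (0.393, 0.513 and 0.338). The libraries may be paired there, but the reported tests used no replicate block. A block entered only as an alternative setting. No libraries agreed within sampling noise (chi-square per degree of freedom of 4.09 or more for every replicate pair).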

Additional observations from a re-analysis of the deposited data

Results flagged for a closer look

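The difference between pifq and WT was not the same in darkness and light for 2 of the 9 genes with mock, where 18.4% of all genes were called, and for 5 with ABA, where 16.9% were, by edgeR's test of the interaction with Benjamini-Hochberg adjustment over all genes. The count with mock is near the share of all genes. With mock, the adjusted p was 0.000606 for SAUR33 and 0.00295 for SAUR36, and in all 3 pifq libraries in darkness both genes were below all 3 WT libraries. With ABA, it was 0.00156 for SAUR33, 0.00328 for SAUR37, 0.00502 for SAUR41, 0.0243 for SAUR74 and 0.0108 for SAUR76. The genes were chosen for their ABA responses in these libraries. The mock and ABA values in these tests, above all the ABA values of dark-grown WT, are therefore not independent of the choice. In darkness with ABA the 3 pifq libraries were below the 3 WT libraries for SAUR33 and above them for the other 4 genes. Light-grown seedlings were also older, so that light and age cannot be told apart in these differences.

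SAUR72 moved in opposite directions with ABA in different backgrounds, with no overlap between ABA and mock libraries in either. The log2 change was -0.37 in dark-grown WT, 1.03 in light-grown WT and 0.57 in dark-grown pifq. This difference was not tested, because the ABA response chose the gene.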

How the results depend on the processing

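The number of the 9 genes called for pifq against WT in light moved with the setting. With mock it was 1, and it was 3 in a fit of the compared libraries alone, 3 with DESeq2 and 2 with the replicate block; with ABA it was 0, and 1 with DESeq2 and 1 with the replicate block. No other such count changed by over 1.5 times under a setting that kept all libraries. Leaving out 1 library gave counts of 3 to 6 for pifq against WT in dark mock, 6 to 8 in dark ABA, 0 to 2 in light mock and 0 to 0 in light ABA. For light against dark it gave 6 to 7 in WT mock, 5 to 6 in pifq mock, 7 to 8 in WT ABA and 4 to 7 in pifq ABA, and for the interaction of genotype and light 2 to 4 with mock and 4 to 5 with ABA. The lowest count in dark mock, 3, came without pifq replicate 1, and the highest interaction count with mock, 4, without dark mock pifq replicate 3.

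Of 533 values under settings that kept every replicate, 513 kept their direction and side of the threshold, 8 lost and 9 gained a call, and 3 changed sign. Those 3 were SAUR37 in light against dark, WT mock, at 0.06 as reported and at -0.0004341 with DESeq2, -0.0003813 with RLE size factors and -0.12 with totals alone. Of 648 values with 1 library left out, 571 kept both, 48 lost and 7 gained a call, and 22 changed sign. None of the values that changed sign was called as reported. They ranged, for pifq against WT, over -0.003522 to 0.20 (SAUR33, light ABA), -0.30 to 0.30 (SAUR33, light mock), -0.25 to 0.006394 (SAUR36, light ABA), -0.02408 to 0.48 (SAUR41, dark mock), -0.76 to 0.28 (SAUR52, light ABA) and -0.005988 to 0.29 (SAUR72, light mock). For light against dark they ranged over -0.05342 to 0.17 (SAUR37, WT mock), -0.335 to 0.28 (SAUR37, pifq mock) and -0.58 to 0.0775 (SAUR74, pifq ABA). For the interaction with mock they ranged over -0.40 to 0.22 (SAUR37), -0.32 to 0.33 (SAUR52), -0.31 to 0.14 (SAUR71) and -0.37 to 0.20 (SAUR74), and with ABA over -0.12 to 0.93 (SAUR52) and -0.40 to 0.16 (SAUR71). The cause of these changes was not tested.

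Scaling by library totals alone moved the median of all genes in light against dark to between -0.175 and -0.293, and in the interaction with ABA to -0.113, so that directions there are relative to the scaling; the share of all calls that were higher went from 50.4% to 37.6% in WT mock, 50.6% to 34.1% in pifq mock, 50.3% to 38.2% in WT ABA and 46.1% to 29% in pifq ABA, and for pifq against WT in light ABA from 45.7% to 24.2%. Under it SAUR72 in light against dark, WT ABA, had 0.30 (adjusted p = 0.0964) and SAUR76 1.71 (0.0591). In the fit of the compared libraries alone, 7 values of the 9 genes could not be had because the gene missed the filter. The replicate block changed 2 calls, SAUR71 in light mock (0.67, adjusted p = 0.0297) and in light ABA (0.78, 0.0305), and no other call of the 9 genes; in light mock the numbers did not pair the libraries (correlations of -0.157, 0.304 and -0.149). Depth limits SAUR37, SAUR52 and SAUR76 with ABA, at 0 to 8 counts in several libraries.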
